A study of Mus musculus with 6 samples.

Results

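High mobility group (HMG) proteins are small, abundant chromatin proteins that bind DNA or nucleosomes without being histones, and 9 of their genes were examined in cells of the Atoh1 lineage: Hmga1, Hmga2, Hmgb1, Hmgb2, Hmgb3, Hmgn1, Hmgn2, Hmgn3 and Hmgn5. A probe set was taken when the platform's annotation gave it 1 gene symbol and that symbol was one of the 9. This found 15 of the 45101 probe sets of the array, for 6 of the 9 genes: 4 for Hmga2, 3 for Hmgb2, 1 for Hmgb3, 4 for Hmgn1, 2 for Hmgn3 and 1 for Hmgn5. The 5 probe sets annotated to Hmgb1 and the 1 annotated to Hmgn2 each carried further symbols and were not used, and no probe set was named Hmga1. Those 3 genes were therefore not analysed here.

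The 6 Affymetrix Mouse Genome 430 2.0 arrays held RNA of EGFP-positive cells sorted at E14.5 from the rhombomere 1 and isthmus region of Swiss Webster embryos. All embryos carried Atoh1-CreER, a tamoxifen-dependent recombinase expressed where the proneural factor Atoh1 is expressed, and the RCE reporter, which makes EGFP after recombination. In the early group (3 arrays) tamoxifen, 4 mg per 35 g of pregnant dam, was given at E10.5, and in the late group (3 arrays) at E13.5. The day of labelling and the time from labelling to sorting therefore differ together, and each group holds the cells labelled around its dose and their progeny. Nothing in the labels tells whether a group's 3 samples came from separate litters, and the p-values below rest on the spread among these samples alone, which may be technical.

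HMG proteins fall into 3 families. Hmga proteins grip the minor groove of AT-rich DNA with AT hooks, Hmgb proteins bend DNA with a pair of HMG boxes and end in an acidic tail, and Hmgn proteins bind the nucleosome core and loosen the packing brought about by linker histones. In the embryonic brain Hmga2 is known as a factor of neural stem cells that is lowered by the let-7 microRNAs, and Hmgb2 as a gene of dividing cells.

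Signals are MAS5 units, 1 value per probe set and array, scaled by array to the same trimmed mean. A level of one probe set cannot be set against that of another, so values are compared between arrays. Ratios of 2 probe sets and sums over a list are likewise read only as they differ between arrays. Differences are early minus late on the log2 scale with limma's standard error, so a negative difference is a higher signal in the late cells. For ratios of 2 probe sets the standard error comes from the spread among the arrays of each group, without limma. Adjusted p-values are limma's with Benjamini-Hochberg adjustment over 23471 tested probe sets, two-sided, with a threshold of 0.05. Since each array was brought to one common level, a change in total RNA per cell cannot be read, and in such bulk samples fewer cells that express a gene and less RNA per cell cannot be told apart.

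The array medians ran from 97.7 to 112 units. By Spearman correlation the late arrays were more alike (0.938 to 0.945) than the early arrays (0.874 to 0.893), and pairs across groups gave 0.845 to 0.886. Actb control probes at the 3′ end read 17.4 to 26.2 times those at the 5′ end in the early arrays and 12.9 to 16.1 times in the late arrays. Gapdh control probes gave ratios from 10.6 to 13.2 (early arrays) and from 9.47 to 12.1 (late arrays). A higher ratio goes with lower RNA integrity. The Actb ratio was higher in all early arrays while the Gapdh ratio overlapped between the groups, and the part of this in the results was not tested. Atoh1, which the labelling selected for, stood at 936, 397 and 738 units in the early arrays and 9733, 6819 and 9372 units in the late arrays. All 8 markers of the Atoh1 lineage were above the array median in some array, and 7 of them passed, 4 toward the late and 3 toward the early group. Over all genes 30.2% passed in either direction. Lhx9, a factor of early-born Atoh1 derivatives, was 10.8-fold higher in the early cells, and Pax6, a factor of granule cell precursors, 7.29-fold higher in the late cells (limma adjusted p = 0.00139 and 0.00224), so the labelled cells of the 2 groups differed in lineage markers. The X-linked transcript Xist was at 166 units in early replicate 3 against 8141 to 19797 units in the other arrays, and the Y-linked Eif2s3y was at 14.1 units in late replicate 3 against 826 to 1772 units in the others. Both arrays stood apart in this way, which bears on Hmgb3 and Hmgn5, genes of the X chromosome, and their values without these arrays are given below. In the arrays then kept, Xist still read lower in early replicates 1 and 2 (10545 and 8141 units) than in late replicates 1 and 2 (14178 and 18008 units). Eif2s3y still read higher in these early arrays (1077 and 1131 against 826 and 942 units). Leaving out the arrays that stood apart therefore does not even out the sex-linked signals between the groups.

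Hmgb2 and Hmgn5 were the member genes with the clearest difference, and both were higher in the late cells. Of the 14 probe sets that lay above the median of their array in at least 3 arrays and were tested, 6 passed as higher in the late group and 0 as higher in the early group. Of all 23471 tested probe sets 26.0% passed in either direction, 2946 of them (12.6%) higher in the late group and 3158 higher in the early group. At an unadjusted p under 0.05 the counts were 8 and 0, beside 20.4% and 19.1% of all tested probe sets. The 6 came from 4 genes: all 3 probe sets of Hmgb2, 1 of 3 of Hmga2, 1 of 2 of Hmgn3 and the 1 of Hmgn5, while Hmgb3 and the 4 probe sets of Hmgn1 did not pass. In 8 of the 14 all late arrays lay above all early arrays, as they did in 24.8% of all tested probe sets, and in 0 of the 14 all early arrays lay above all late ones, against 22.1% of all. With each gene given by its brightest tested probe set, 2 of 6 genes, Hmgb2 and Hmgn5, passed as higher in the late group and 0 in the early group, where 30.2% of 11079 genes passed in either direction, 1548 of them higher in the late group and 1799 (16.2%) higher in the early group. The share of member genes that passed, 2 of 6, was near the 30.2% of all genes. Probe sets of a gene share its RNA and are not independent. One of the 14, Hmgb2 1438307_at, was above the array medians in the late group only and had to differ to be tested.

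**Figure D1:**
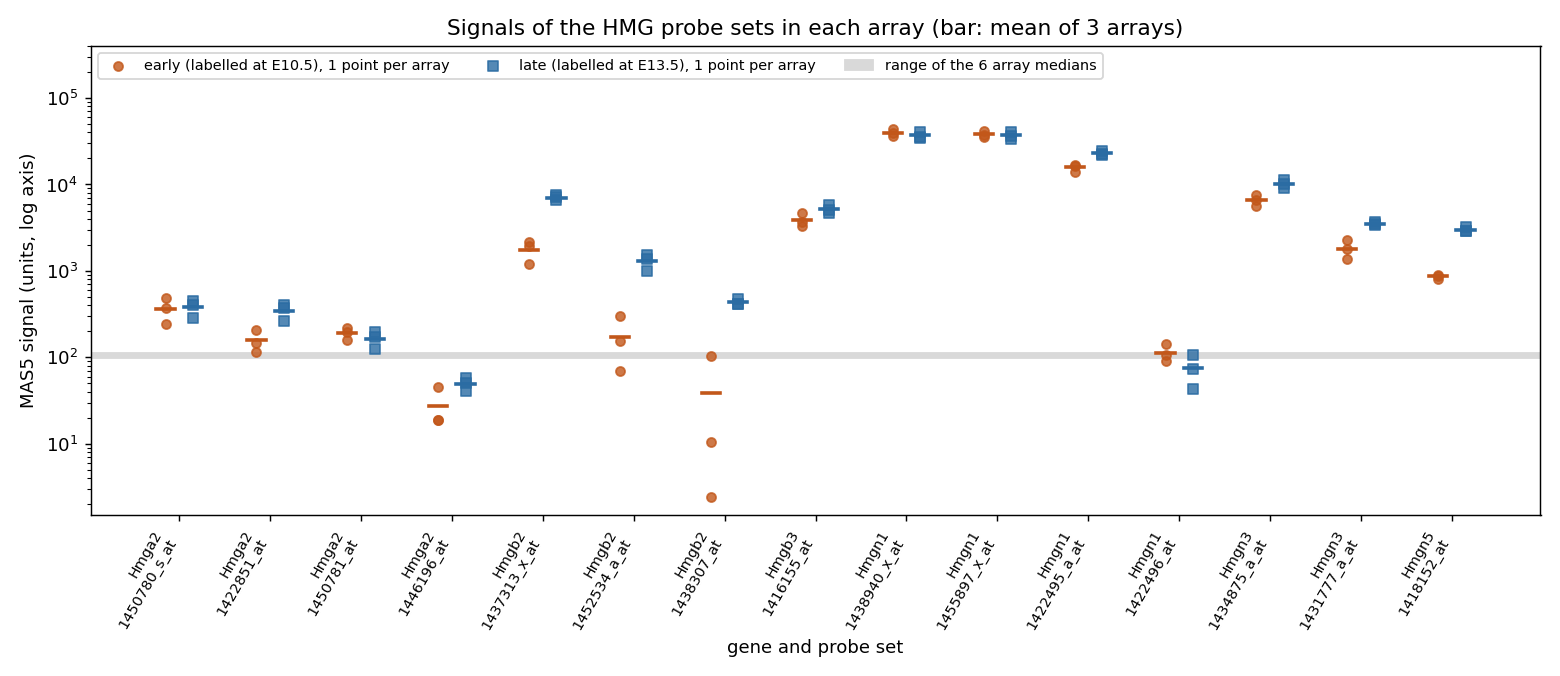
MAS5 signal (log axis) of each of the 15 HMG probe sets in the 3 early (circles) and 3 late (squares) arrays, with a bar at each group's mean and a grey band over the 6 array medians. Late arrays stand above early ones for Hmgb2, Hmgn3, Hmgn5, Hmga2 1422851_at and Hmgn1 1422495_a_at, while the 2 brightest Hmgn1 probe sets, between 33825 and 43278 units, overlap.

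Hmgb2 encodes an HMG-box protein that bends DNA and is present mostly in dividing cells. Its brightest probe set, 1437313_x_at, is of the _x_at type, whose probes may also match other sequences. Which transcripts it reads was not tested. On it the early arrays stood at 2170, 1191 and 1946 units and the late arrays at 6646, 7086 and 7465 units. The groups did not overlap, and the lowest late array was more than 3 times the highest early one, with early replicate 2 the lowest of all. The difference was -2.04 ± 0.27 (SE, n = 3 and 3), or 4.12-fold (limma adjusted p = 0.0041). A second probe set, 1452534_a_at, read 299, 69.6 and 155 units in the early arrays and 987, 1528 and 1388 units in the late ones. Here too no arrays overlapped and early replicate 2 was lowest, at a signal below its array's median. The difference was -3.11 ± 0.53, or 8.66-fold (limma adjusted p = 0.00954). The third probe set, 1438307_at, was dim, with 10.6, 2.44 and 104 units in the early arrays and 419, 416 and 472 units in the late ones. All early values lay at or below the array medians, so this probe set was tested only through the late arrays, and the fitted 31.3-fold (difference -4.97 ± 1.27, limma adjusted p = 0.0341) depends on signals near background. In the fit without that filter the call was lost (limma adjusted p = 0.0984). With signals raised to the array median it was 4.05-fold, and it ran from 13.1-fold without early replicate 2 to 85.6-fold without early replicate 3. It was also lost without early replicate 1 (limma adjusted p = 0.0812) and in turn late replicates 1, 2 and 3 (0.1, 0.0952 and 0.104).

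Without early replicate 3 and late replicate 3, which leaves 2 arrays in each group, the calls of both brighter Hmgb2 probe sets were lost (limma adjusted p = 0.0553 and 0.0945) at folds of 4.27 and 8.51. Hmgb2 lies on chromosome 8 of GRCm38.p6, from 57511843 to 57515999. The genes whose log2 pattern over the 6 arrays lay nearest to that of 1437313_x_at among 11079 genes were Ddx11, a DNA helicase (3.96-fold higher in the late cells), Iqgap3, a scaffold protein (4.28-fold), Cald1, which binds actin (3.61-fold), and Tfdp2, a partner of E2F factors (3.72-fold). Their distances were 0.188 to 0.262 log2 units. This likeness is a description over 6 arrays in 2 groups.

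Hmgb3, an HMG-box protein known from blood stem cells, showed a smaller difference than Hmgb2. Its 1 probe set read 4698, 3657 and 3298 units in the early arrays and 4643, 5750 and 5118 units in the late ones. Early replicate 1 lay above late replicate 1, so the groups overlapped. The difference was -0.42 ± 0.21 (95% interval -0.93 to 0.09) and did not pass (limma adjusted p = 0.189), and without early replicate 3 and late replicate 3 it was -0.32 (adjusted p = 0.505). The log2 ratio of Hmgb2, by 1437313_x_at, to Hmgb3 changed by -1.62 ± 0.26 from late to early, 3.07-fold more for Hmgb2. The groups did not overlap in this ratio (exact two-sided permutation test over arrays, p = 0.1, the smallest that 3 against 3 arrays can give).

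The promoters of Hmgb2 and Hmgb3 are shown because both hold the CCAAT box and the cell cycle homology region, elements known from genes of the G2 and M phases, while the difference passed for Hmgb2 and not for Hmgb3. Each run is the 250 bases before the RefSeq transcription start, 5′ to 3′ on the gene's strand, for Hmgb2 at chr8:57511593-57511842 (plus strand) and for Hmgb3 at chrX:71555667-71555916 (plus strand), both of GRCm38.p6. Capitals mark matches, on either strand, to the CCAAT box, to TTTGAA for the cell cycle homology region, to GCGGGAA for an E2F-type site and to TATAAA for the TATA box. Positions are counted back from the start, with -1 the base before it.
Hmgb2: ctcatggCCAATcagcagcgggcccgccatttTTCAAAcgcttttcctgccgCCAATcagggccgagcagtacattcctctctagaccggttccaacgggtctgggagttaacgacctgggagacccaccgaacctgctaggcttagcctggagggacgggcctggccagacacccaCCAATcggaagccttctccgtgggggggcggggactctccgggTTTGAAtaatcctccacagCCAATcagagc
Hmgb3: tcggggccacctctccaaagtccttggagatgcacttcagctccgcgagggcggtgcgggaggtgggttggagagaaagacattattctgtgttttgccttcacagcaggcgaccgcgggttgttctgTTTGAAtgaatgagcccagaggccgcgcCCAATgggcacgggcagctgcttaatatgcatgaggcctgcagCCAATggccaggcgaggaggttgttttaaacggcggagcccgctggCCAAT
Hmgb2 held 4 CCAAT matches, the nearest at -11 to -7, and 2 matches of the cell cycle homology region, one at -30 to -25 on the gene's strand and one at -218 to -213 on the opposite strand. Hmgb3 held 3 CCAAT matches, the nearest at -5 to -1, and 1 cell cycle homology region at -122 to -117. None of the matches overlapped another. Of 32851 promoter windows of 300 bases (250 before and 50 after the start), 37.4% held at least 1 CCAAT match, 3.37% at least 3 and 1.06% at least 4. The cell cycle homology region was matched in 17.9%, at least 2 times in 2.31%, and together with CCAAT in 6.95%. A match of letters is a description and not a bound site.

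**Figure D2:**
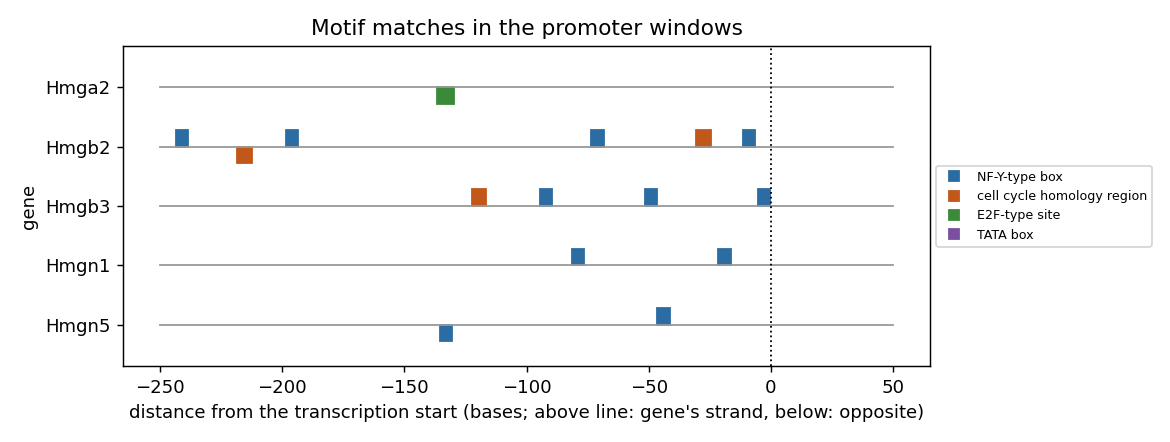
Motif matches by distance in bases from the transcription start for the 5 member genes with a RefSeq promoter window, drawn above the line where they lie on the gene's strand and below it on the opposite strand. The NF-Y-type boxes are the CCAAT matches: Hmgb2 has 4, Hmgb3 has 3, Hmgn1 and Hmgn5 have 2 each and Hmga2 has none, and no gene has a TATA box match.

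Hmgn5, a nucleosome-binding protein with a long acidic end that counteracts linker histones, was higher in the late cells with little spread within either group. Its early arrays stood at 816, 907 and 868 units and its late arrays at 2874, 3232 and 2920 units. The groups were far apart relative to their spread, at 864 ± 45.7 against 3008 ± 195 units (SD, n = 3 in each). The difference was -1.80 ± 0.17, or 3.48-fold (limma adjusted p = 0.00177). Of all tested probe sets, 6.04% had a larger difference toward the late group. Hmgn5 lies on the X chromosome, from 109004537 to 109013380 of GRCm38.p6. Without early replicate 3 and late replicate 3, the arrays that stood apart in sex-linked signals, the fold was 3.54 (limma adjusted p = 0.0391). The difference was as large without them, but Xist and Eif2s3y still differed between the groups in the arrays kept. The part of sex-linked signals in the Hmgn5 difference was not tested. The Hmgn5 call held in all 18 alternative settings, in which the limma adjusted p ran from 7.33e-05 to 0.0391.

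The Hmgn5 promoter is shown because the difference of its gene was the one that passed in every alternative setting run, and its window holds another set of matches than that of Hmgb2. It covers chrX:109013381-109013630 of GRCm38.p6 on the minus strand, the 250 bases before the start, with the same use of capitals.
Hmgn5: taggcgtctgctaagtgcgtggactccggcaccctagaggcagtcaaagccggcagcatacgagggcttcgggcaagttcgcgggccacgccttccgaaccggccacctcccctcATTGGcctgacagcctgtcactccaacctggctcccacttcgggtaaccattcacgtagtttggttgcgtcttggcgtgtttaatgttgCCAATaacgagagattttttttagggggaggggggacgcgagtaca
It held 2 CCAAT matches, one at -46 to -42 and one at -135 to -131 on the opposite strand. The letters of the cell cycle homology region, the E2F-type site and the TATA box were not in this window. At least 2 CCAAT matches were found in 11.7% of all windows. Hmgn1 likewise held 2, at -81 to -77 and -21 to -17, in a window of 76% G and C against a median of 52.7% over all windows. Hmga2 held 1 E2F-type match, at -136 to -130 on the opposite strand, a motif matched in 4.6% of all windows. Hmgn3 was not among the windows used.

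Hmgn3, a nucleosome-binding protein made in several splice forms, was read by 2 probe sets, and both were higher in the late arrays, 1 of them past the threshold. On 1431777_a_at the early arrays stood at 1797, 2258 and 1384 units and the late arrays at 3374, 3698 and 3510 units, so the groups did not overlap. The difference was -0.99 ± 0.23, or 1.98-fold (limma adjusted p = 0.0249). The brighter 1434875_a_at read 6573, 7464 and 5688 units in the early arrays and 11354, 10186 and 9059 units in the late ones. These groups did not overlap either, and early replicate 2 was highest and early replicate 3 lowest among the early arrays on both probe sets. The difference was -0.64 ± 0.20, or 1.55-fold (95% interval of the difference -1.11 to -0.16), and did not pass (limma adjusted p = 0.0581). The call of 1431777_a_at was lost without early replicate 1 (limma adjusted p = 0.0509) and in turn late replicates 1, 2 and 3 (0.0775, 0.0899 and 0.0896). It was also lost without the pair of arrays with sex-linked signals that stood apart (0.141, at 1.75-fold). With all arrays kept, the call was lost with the replicate number as a block and without the filter (0.0652 and 0.106). That of 1434875_a_at was gained in 5 of 18 alternative settings, with limma adjusted p from 0.00888 to 0.0498 in those. The gene lies on chromosome 9, from 83109942 to 83147358 of GRCm38.p6.

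Hmgn1, a nucleosome-binding protein of most tissues, was read by 4 probe sets that did not go one way. The 2 brightest, both of the _x_at type, whose probes may also match other sequences, stood among the highest signals of the arrays, at percentiles from 99.86 to 99.97. On 1438940_x_at the early arrays read 36366, 39629 and 43278 units and the late arrays 40867, 35688 and 34522 units. The groups overlapped, the difference was 0.10 ± 0.18 (95% interval -0.32 to 0.53; limma adjusted p = 0.701), and its sign turned with quantile normalization. The companion 1455897_x_at read 35775, 37380 and 41814 units against 40612, 36736 and 33825 units, a difference of 0.05 ± 0.18 (95% interval -0.38 to 0.47; limma adjusted p = 0.86), whose sign turned in the same way and with centring on the array median. The highest signals of the 6 arrays were 42104 to 86574 units. Whether signals this bright still follow the RNA was not tested.

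On the next Hmgn1 probe set, 1422495_a_at, the early arrays stood at 16859, 16462 and 13988 units and the late arrays at 24188, 22613 and 22194 units. Here all late arrays lay above all early arrays, by a difference of -0.55 ± 0.17 or 1.46-fold, with an interval of -0.97 to -0.13, and the call was missed (limma adjusted p = 0.0624). It was gained with quantile normalization, with the filter at the 70th percentile and with trend and robust settings (limma adjusted p = 0.0438, 0.0295 and 0.00458). The fourth probe set, 1422496_at, read 142, 107 and 92.1 units in the early arrays and 43.1, 72.9 and 108 units in the late ones, around the array medians. These overlapped, and the difference of 0.68 ± 0.37 did not pass (limma adjusted p = 0.229). Hmgn genes have many processed pseudogenes, and which transcripts each probe set reads was not tested, so a direction for Hmgn1 as a gene is uncertain. It lies on chromosome 16, from 96121588 to 96127725 of GRCm38.p6.

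Within the Hmgn family the signals of the members stood apart between the groups to different degrees. The log2 ratio of Hmgn1 to Hmgn5, each by its brightest tested probe set, was higher in the early cells by 1.90 ± 0.12, or 3.74-fold. The ratio of Hmgn3 to Hmgn5 was higher there by 1.16 ± 0.15 (2.24-fold) and that of Hmgn1 to Hmgn3 by 0.74 ± 0.17 (1.67-fold). In each of these 3 pairs, as in Hmgb2 and Hmgb3, the 2 groups of arrays did not overlap. The exact two-sided permutation test gave p = 0.1 for each of the 4 pairs compared, and 0.1 after Benjamini-Hochberg adjustment over the 4, the smallest it can give here. The ratios with Hmgn1 rest on 1438940_x_at. On 1422495_a_at the difference of Hmgn1 was -0.55, close to the -0.64 of Hmgn3.

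**Figure D3:**
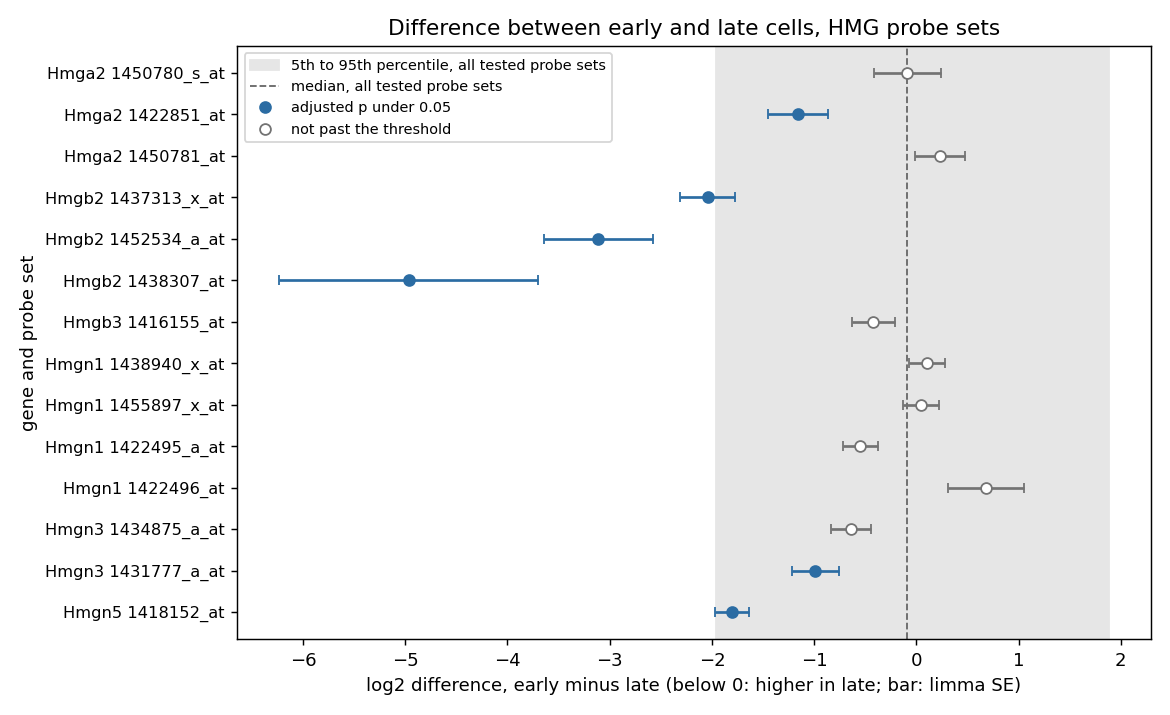
Log2 difference, early minus late, of the 14 tested HMG probe sets with limma's SE, filled where the adjusted p was under 0.05, over the range from the 5th to the 95th percentile of all tested probe sets (-1.96 to 1.88, grey) and their median (-0.09, dashed). The 3 Hmgb2 probe sets lie at -2.04, -3.11 and -4.97 and Hmgn5 at -1.80, while 2 Hmgn1 probe sets lie near 0.

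Hmga2, the AT-hook protein of embryonic stem and progenitor cells, was dim on all 4 probe sets and moved on 1 of them. On 1422851_at the early arrays stood at 210, 115 and 147 units and the late arrays at 372, 401 and 264 units. The groups did not overlap and the difference was -1.16 ± 0.29, or 2.23-fold (limma adjusted p = 0.0336). On 1450780_s_at the signals were 368, 244 and 489 units in the early arrays and 405, 455 and 285 units in the late ones. These groups overlapped, and the difference of -0.09 ± 0.32 (95% interval -0.87 to 0.70) did not pass (limma adjusted p = 0.867). On 1450781_at the signals were 160, 197 and 217 units against 173, 196 and 126 units, again overlapping (0.23 ± 0.24, limma adjusted p = 0.521). The last, 1446196_at, lay below the median of every array, at 18.7 to 45.5 units in the early arrays and 40.5 to 57.6 units in the late ones, and was not tested.

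The Hmga2 call moved with single arrays and with the settings of the fit. It was lost without, one at a time, early replicates 2 and 3 (limma adjusted p = 0.0625 and 0.0725) and in turn late replicates 1, 2 and 3 (0.112, 0.113 and 0.057). With all arrays kept, it was lost with the replicate number as a block, without the filter and with array weights (0.0719, 0.116 and 0.0619). It was also lost without early replicate 3 and late replicate 3 together (0.116). The gene lies on chromosome 10, from 120361268 to 120476469 of GRCm38.p6. Of 7 tested genes of the let-7 and Hmga2 axis, 3 passed toward the late group and 1 toward the early group, with a median difference of 0.17 against -0.03 over all genes, of which 30.2% passed in either direction. Ccnd2, a D-type cyclin and Hmga2-linked cell cycle gene, was 7.07-fold higher in the late cells (2226 ± 668 against 15342 ± 1937 units, SD, n = 3; limma adjusted p = 0.00193), and Igf2bp1, an RNA-binding protein of growing embryonic tissues, 4.58-fold (271 ± 48.5 against 1231 ± 88.9 units; adjusted p = 0.0018). Lin28b, which blocks the maturation of let-7, read 226 ± 107 units in the early samples against 61.9 ± 33.0 units in the late samples (limma adjusted p = 0.0426). Its late signals lay at or below the array medians, so it was tested only through the early arrays and had to differ.

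Calls of the members moved with the settings to different degrees. Hmgn5 passed under all 18 alternatives and Hmgb2 1437313_x_at and 1452534_a_at under 17 of 18 each, the exception for both being the fit without early replicate 3 and late replicate 3. Hmgb2 1438307_at passed under 12 of 18, Hmgn3 1431777_a_at under 10 of 18 and Hmga2 1422851_at under 7 of 17, since it was not tested with the filter at the 70th percentile. Hmgb3 passed under 0 of 18 in limma, and under the same settings Hmgn1 1438940_x_at and 1455897_x_at also under 0.

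**Figure D4:**
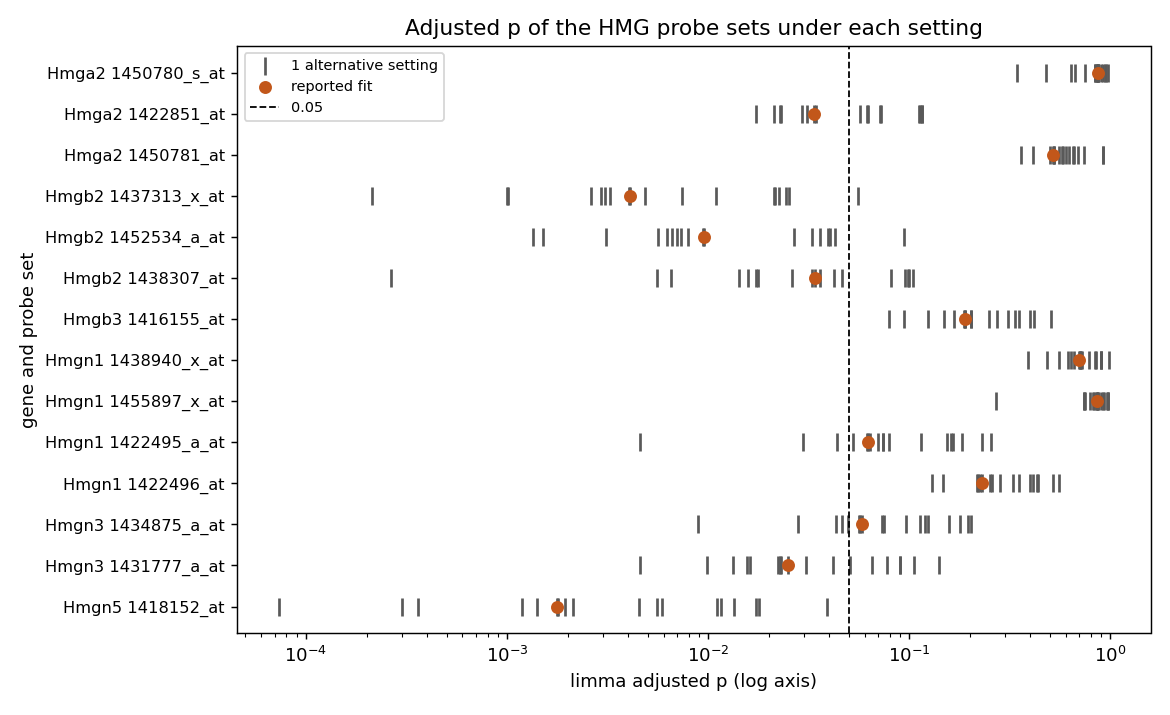
Limma adjusted p (log axis) of the 14 tested HMG probe sets in the reported fit (dots) and in each alternative setting (ticks), with a dashed line at 0.05. All ticks of Hmgn5 lie left of the line, up to 0.0391, while those of Hmgn3 1434875_a_at reach from 0.00888 to 0.203 on both sides of it.

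Genes of dividing cells and of neurons differed between the groups as well, and these lists were given because Hmgb2 is a gene of dividing cells. All 9 tested genes of cycling cells were higher in the late cells, with a summed signal of 3366 to 4270 units in the early arrays and 29425 to 31690 units in the late ones and a median difference of -2.82. Mki67, a nuclear protein of dividing cells, was 11.1-fold higher in the late cells, Cdk1, the kinase that starts mitosis, 10.6-fold, and Bub1, a spindle checkpoint kinase, 9.79-fold (limma adjusted p = 0.00112, 0.00138 and 0.00558). Among 10 tested genes of postmitotic neurons 6 were higher in the early cells and 4 did not pass, with a median of 1.10 and a sum of 94072 to 100120 units in the early against 46895 to 53933 units in the late arrays. Camk2b, a neuronal kinase, stood at 746 ± 437 against 118 ± 42.0 units (SD, n = 3), and Nefl and Stmn2, of the axonal cytoskeleton, at 8799 ± 455 against 2865 ± 582 and at 11525 ± 848 against 4919 ± 815 units. Rbfox3, a nuclear protein of mature neurons, leaned the other way at 2193 ± 455 against 3540 ± 336 units without passing (difference -0.71 ± 0.22, adjusted p = 0.0607), and is named after its values were seen. The part of these differences in the results for Hmgb2, Hmgn3 and Hmgn5 was not tested.

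Histone chaperones, which carry histones to and from DNA and in part share acidic stretches with the HMG proteins, were mostly higher in the late cells. Of 19 tested, 11 passed toward the late group and 3 toward the early group, with a median of -0.80. Over all 11079 genes 1548 passed toward the late group and 16.2% toward the early group, with a median of -0.03. Asf1b, a chaperone of histones H3 and H4 in replicating cells, was 4.95-fold higher in the late cells (285 ± 98.7 against 1371 ± 284 units, SD, n = 3; limma adjusted p = 0.00448). The 3 higher in the early cells, Nap1l3, Nap1l5 and Nap1l2, belong to the nucleosome assembly protein family, in which they are known as neuronal members. Nap1l3 stood at 1633 ± 509 against 262 ± 38.5 units (difference 2.59 ± 0.30, limma adjusted p = 0.00288) and Nap1l5 at 3103 ± 410 against 734 ± 153 units (2.09 ± 0.22, adjusted p = 0.0024). Nap1l2, named after its values were seen, differed by 1.90 ± 0.22 (adjusted p = 0.00306).

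Further HMG-box genes went in both directions. Of 15 tested, 3 passed toward the late group and 2 toward the early group, with a median of -0.44. Their share that passed, 5 of 15, was near the 30.2% of all genes. Tox2, a nuclear HMG-box factor, stood at 1550 ± 515 units in the early samples against 124 ± 59.8 units in the late samples (SD, n = 3; limma adjusted p = 0.00246). Hbp1, an HMG-box repressor known for slowing the cell cycle, was 3.28-fold higher in the late cells, at 769 ± 138 against 2497 ± 139 units (adjusted p = 0.0029). Hmg20b, part of a corepressor complex, was dim at 46.3 ± 13.3 against 156 ± 16.0 units (adjusted p = 0.00549), below the median of every early array, so that it was tested only through the late arrays and had to differ. Of the linker histones, the partners that Hmgn proteins displace, 3 of 5 genes on the array lay at or below the median in all arrays. The 2 tested did not pass in limma, with 1 under an unadjusted p of 0.05: H1f10 differed by -0.66 ± 0.24 (adjusted p = 0.0925) and H1f2 by -0.19 ± 0.68 (adjusted p = 0.86).

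Of 9 genes for receptors and partners of extracellular Hmgb1, 6 lay at or below the median in all arrays, 3 were tested, and 1 was higher in each group. Over all genes 30.2% passed in either direction. Cxcr4, a chemokine receptor that also takes up signals of an Hmgb1 complex with Cxcl12, was 6.55-fold higher in the late cells (533 ± 284 against 3221 ± 438 units, SD, n = 3; limma adjusted p = 0.00487). Cd24a, a surface glycoprotein of young neurons, was at 40290 ± 2673 units in the early samples against 25053 ± 1042 units in the late samples (adjusted p = 0.0286).

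**Figure D5:**
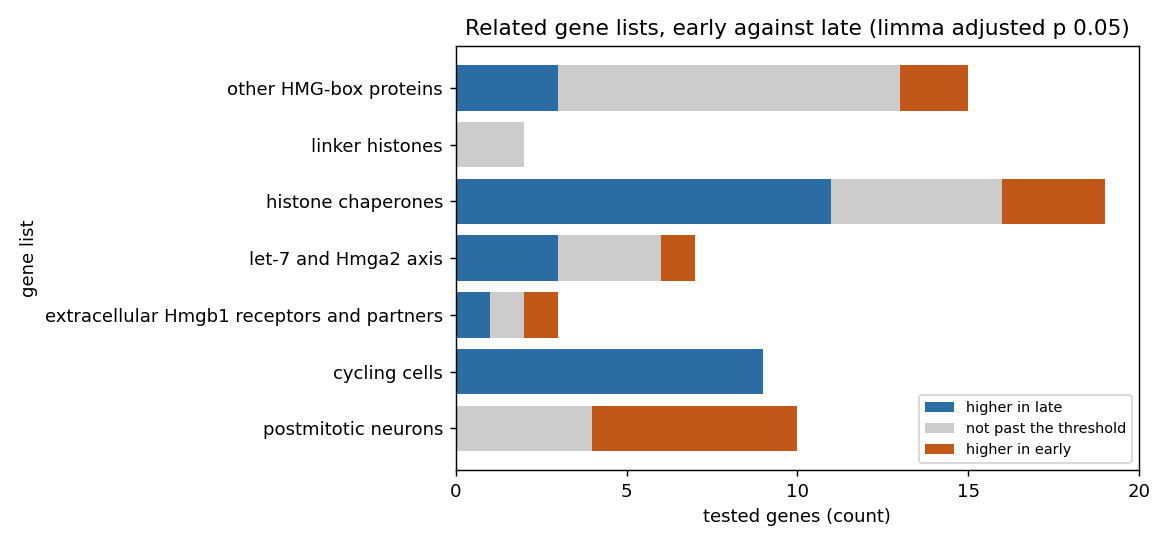
Number of tested genes of each related list that were higher in the late group (blue), higher in the early group (orange) or not past the threshold (grey), at a limma adjusted p of 0.05. All 9 cycling-cell genes were higher in the late cells, 6 of 10 neuronal genes in the early cells, and 11 of 19 histone chaperones in the late cells.

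Summed markers of other cells that a sort could hold either overlapped between the groups or stood higher in the early arrays. Summed signals of 8 microglial markers were 526 to 1479 units in the early arrays and 329 to 499 units in the late ones, with 1 of 2 tested higher in the early group, and 3 of the 8 lay at or below the median everywhere. Endothelial markers summed to 457 to 2657 against 338 to 1583 units and those of meninges and pericytes to 764 to 2706 against 379 to 1166 units. Of their 3 and 4 tested genes 0 passed in limma, and 0 had an unadjusted p under 0.05. Erythroid markers lay at or below the median in all arrays for 5 of 6 genes and summed to 137 to 4820 against 346 to 453 units. Oligodendrocyte precursor markers summed to 2708 to 3143 units in the early arrays and 864 to 1110 units in the late ones (2 of 4 higher in the early, 1 in the late group). Radial glial and astrocyte markers summed to 8752 to 10254 against 4512 to 6943 units (2 of 5 higher in the early, 1 in the late group) and GABAergic markers to 916 to 1793 against 678 to 998 units (2 of 4 higher in the early group). Fabp7, at 8432 ± 526 against 4638 ± 1110 units, made up most of the glial sum. Aldh1l1 was also higher in the early cells, but its late signals lay at or below the array medians, so it had to differ to be tested. Slc1a3 was 1.89-fold higher in the late cells (limma adjusted p = 0.0363). Of all genes 30.2% passed in either direction. The part of these other cells in the results for the HMG genes was not tested.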

How the data were processed

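RNA of 6 sorted samples, 3 early and 3 late, was measured on Affymetrix Mouse Genome 430 2.0 arrays. The deposited values are intensities, made with MAS5 per the submitters' processing notes; version, detection calls and pooling are not given. The values of each array have a mean of 500 once the lowest and highest 2% are dropped. Since mismatch probes are subtracted in MAS5, dim values are noisy in log2 terms, and 3 arrays a group limit the precision.

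Log2 signals were compared with limma 3.58.1 in R 4.3.3 (lmFit, eBayes, 2.26 prior degrees of freedom), which was checked on simulated data. The 64 control probe sets were left out, and a probe set was tested if above its array's median in at least 3 of 6 arrays. Gene names came from the platform annotation (932 probe sets carry several symbols, 9211 none). Gene positions and promoters are RefSeq's for GRCm38.p6; windows matched 5 of 6 measured members by symbol. The members, lists and tests were chosen with earlier results of these data known. Named genes were all member probe sets, the 3 called genes with the largest differences in each list, or fewer, (2 uncalled ones where none passed), Atoh1 and the 4 nearest patterns to the member with the largest difference in each direction (none passed toward the early group). Among the lists of other cells, genes were named only for oligodendrocyte precursors and radial glia, and the rest are given as sums and counts. Ratios within families were tested over arrays by exact permutation. Alternatives changed the normalization, filter, floor, offset, array weights, eBayes options, threshold and probe set per gene, added a replicate block, or left out arrays, which kept the tested probe sets.

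Deviations of same-numbered arrays correlated at -0.03, -0.07 and -0.01. These values gave no sign that replicate numbers pair the arrays, but they cannot exclude a shared litter or batch.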

Additional observations from a re-analysis of the deposited data

How the results depend on the processing

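Of the member probe sets, 6 were higher in the late group in the reported fit. Other settings gave 3 at an adjusted p under 0.01, 3 without the filter (which tests more probe sets), 2 without early replicate 3 and late replicate 3 together, and 3 to 6 with 1 array left out. By gene, 2 passed, and 1 (Hmgn5) without that pair of arrays, with 2 to 3 when 1 array was left out.

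Calls over all probe sets numbered 2946 toward the late group and 3158 toward the early group. These became 985 and 1450 at an adjusted p under 0.01, 1160 and 1559 without the filter, and 661 and 843 without that pair of arrays. With 1 array left out they ran from 1161 to 2987 and from 1781 to 2891. With the replicate number as a block, 1588 and 2005 passed, and 4 member probe sets, all higher in the late group, as against 6. Hmga2 1422851_at and Hmgn3 1431777_a_at lost their calls with this block (limma adjusted p = 0.0719 and 0.0652).

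Signs turned for probe sets that never passed. Hmga2 1450780_s_at became 0.038 with array weights, and ran from -0.32 to 0.18 with 1 array left out. Hmga2 1450781_at became -0.049 without that pair of arrays. Hmgn1 1438940_x_at became -0.19 with quantile normalization and -0.0086 without the pair. Hmgn1 1455897_x_at became -0.25 with quantile normalization, -0.010 with centring on the array median and -0.079 without the pair, and ran from -0.015 to 0.12 with 1 array left out. The cause was not tested. The floor at the 25th percentile of each array was chosen after seeing the data and gave 6 member probe sets. Signals near the array median limit Hmga2 and the dimmest Hmgb2 and Hmgn1 probe sets.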
